A study of Mus musculus with 24 samples.

Results

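The 11 genes described here were small nuclear RNA (snRNA) loci that had at least 1 count in each of 11 libraries of neonatal mouse blood. They were selected on the blood counts themselves, from the 1383 snRNA loci among the 48709 genes of the authors' table, so their presence in blood is a description and carries no test. By sequence, 4 were U1 loci, 4 were U2 loci, 2 were U4 loci and 1 was a U12 locus. The libraries were total RNA from blood and cerebral cortex of C57BL/6J pups, a strain that the study's methods give as C57BL/6NJ. The nPM group came from dams that breathed nano-sized particulate matter (nPM, collected from the air near a freeway) during pregnancy. Exposure ran for 5 hours a day on 3 days a week from gestational day 2 until birth. The concentration was 300 μg/m3 in the study's methods, while the labels give 300 mg/m3. The control group came from dams in filtered air. Pups were labelled as 3 to 5 days old, and none carried an engineered allele. From each tissue, 3 female and 3 male pups were sequenced per exposure. The study describes the 2 tissues as coming from the same animals, so cortex is not a separate set of pups. Which blood and cortex libraries share a pup is not given. Within each sex and exposure the pups came from different litters, per the study's methods. Which male and female pups shared a litter is not given.

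Small nuclear RNAs are the RNA cores of the spliceosome, the machine that removes introns from pre-mRNA. U1 pairs with the start of an intron, U2 pairs with the branch site near its end, and U4 holds U6 inactive until the spliceosome is assembled. U12 takes the place of U2 in the minor spliceosome, which removes a rare class of introns. The mammalian genome holds U1 and U2 in many near-identical copies, and a short read often matches several of them.

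The sequences of 10 of the 11 loci are shown, because how far each locus can be told from its copies decides what its count means. They are GENCODE M21 transcripts (GRCm38, the same build as mm10) and all 11 loci lay at the same position in that release as in the deposited gene table. Capitals mark the run that pairs with the intron or binds the Sm ring, and every base at which the printed loci of a class differ. Positions are counted from 1 at the 5′ end.

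The first 3 are U1 loci on chromosome 12: Gm22513 (chr12:54696782-54696945, plus strand), Gm24305 (chr12:54734555-54734718, minus strand) and Gm22317 (chr12:54738459-54738622, minus strand). None of them overlapped another annotated gene. The capital run at bases 3 to 11 is ACTTACCTG, which pairs with the 5′ splice site.
Gm22513: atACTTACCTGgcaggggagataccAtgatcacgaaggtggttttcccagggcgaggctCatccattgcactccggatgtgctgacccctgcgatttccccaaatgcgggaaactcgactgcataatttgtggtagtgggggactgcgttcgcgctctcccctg
Gm24305: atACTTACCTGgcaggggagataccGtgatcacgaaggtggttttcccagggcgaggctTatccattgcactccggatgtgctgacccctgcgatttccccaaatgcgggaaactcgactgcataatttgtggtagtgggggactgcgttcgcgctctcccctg
Gm22317: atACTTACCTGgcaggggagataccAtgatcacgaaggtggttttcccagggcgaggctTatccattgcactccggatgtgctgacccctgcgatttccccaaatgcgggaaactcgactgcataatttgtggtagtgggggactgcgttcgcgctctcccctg

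From Gm22513 to Gm22317 the 164 bases changed only by C60T, and from Gm22513 to Gm24305 by A26G and C60T. Gm22317 was identical over its whole length to 6 other loci, Rnu1a1 among them. In Gm22513, 48 of the 115 possible 50-base windows occurred in no other snRNA locus. In Gm24305 the number was 26, and in Gm22317 it was 0. The U1 run was present in 31 of the 33 loci of the U1 class and in 3.98% of all 1382 snRNA loci with a sequence.

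The next 4 are U2 loci: Gm25939 (chr1:72255008-72255198, plus strand), Gm23444 (chr11:83271498-83271688, plus strand), Gm23971 (chr11:101645740-101645930, minus strand) and Gm22973 (chr12:59040335-59040525, plus strand). Gm25939 lay in an intron of the lincRNA D230017M19Rik, on the same strand, and the other 3 overlapped no annotated gene. The capital run at bases 33 to 38 is GTAGTA, which pairs with the branch site.
Gm25939: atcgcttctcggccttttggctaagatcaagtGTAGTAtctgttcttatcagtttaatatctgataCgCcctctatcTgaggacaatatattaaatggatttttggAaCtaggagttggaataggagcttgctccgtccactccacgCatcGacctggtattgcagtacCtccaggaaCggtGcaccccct
Gm23444: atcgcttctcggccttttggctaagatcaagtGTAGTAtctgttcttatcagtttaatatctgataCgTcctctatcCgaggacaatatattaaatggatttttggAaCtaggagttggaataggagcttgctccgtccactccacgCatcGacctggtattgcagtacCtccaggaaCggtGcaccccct
Gm23971: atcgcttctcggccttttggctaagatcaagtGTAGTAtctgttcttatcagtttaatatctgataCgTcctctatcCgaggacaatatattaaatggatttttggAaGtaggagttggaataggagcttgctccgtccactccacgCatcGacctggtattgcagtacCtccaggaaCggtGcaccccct
Gm22973: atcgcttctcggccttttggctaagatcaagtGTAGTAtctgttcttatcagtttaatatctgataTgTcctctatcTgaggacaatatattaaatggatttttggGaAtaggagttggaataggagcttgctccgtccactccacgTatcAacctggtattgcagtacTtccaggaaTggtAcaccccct

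Gm25939 differed from Gm23444 by C69T and T78C, and Gm23444 from Gm23971 by C109G alone. Gm22973 stood apart from each of the other 3 by 9 bases. Gm23444 was identical to Gm23472 on chromosome 1, and Gm23971 was identical to Gm23849, Gm24950 and Rnu2-10. Neither Gm23444 nor Gm23971 had a 50-base window of its own, whereas Gm25939 had 59 of 142 and Gm22973 had 125 of 142. All 14 loci of the U2 class held the GTAGTA run, as did 3.69% of all snRNA loci.

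The last 3 are the U4 pair Gm24265 (chr5:115489459-115489599) and Gm24407 (chr5:115490254-115490394), which lay 655 bases apart on the plus strand, and the U12 gene Rnu12 (chr15:83149644-83149794, plus strand). They overlapped no annotated gene. The capital run ATTTTTG at bases 119 to 125 of U4 is the Sm site, and AAGGAA at bases 20 to 25 of U12 pairs with the branch site of minor introns.
Gm24265: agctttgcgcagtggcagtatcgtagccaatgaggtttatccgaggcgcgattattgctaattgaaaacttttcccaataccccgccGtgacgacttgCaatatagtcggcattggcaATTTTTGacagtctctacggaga
Gm24407: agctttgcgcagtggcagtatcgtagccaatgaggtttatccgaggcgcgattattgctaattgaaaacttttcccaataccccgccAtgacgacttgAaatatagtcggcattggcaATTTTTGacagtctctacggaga
Rnu12: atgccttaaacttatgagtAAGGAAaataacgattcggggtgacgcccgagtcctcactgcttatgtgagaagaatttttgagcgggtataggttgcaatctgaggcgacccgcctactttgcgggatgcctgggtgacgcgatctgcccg

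From Gm24265 to Gm24407 the changes were G88A and C99A, and each had 54 of 92 windows of 50 bases to itself. Rnu12 had 47 of 102. The Sm run was present in 3.33% and the U12 run in 2.46% of all snRNA loci. The 11th locus, Gm26244, is a U1 copy in an intron of Rock1, on the same strand, and differed from Gm22317 at 1 base. It had 13 of 115 windows to itself, and its sequence is not shown. The read length and the treatment of reads that match several loci are not given in the sources used here.

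Blood libraries held between 13595647 and 21895536 counts on genes, and cortex libraries between 22301409 and 33804371. Reads on snRNA were few in blood. All 1383 loci together took between 16.9 and 63.9 CPM (counts scaled to a library total of 1e6) in the 11 blood libraries, against 620.2 to 1046 CPM in cortex. In blood 1236 loci had no count in any of the 11 libraries and 136 had counts in some but not all, whereas 98 had a count in every cortex library. The loci closest to the limit on the inside were Gm22973, with 1 to 11 counts per library, Gm22317, with 2 to 126, and Gm24265, with 2 to 31. On the outside, Gm26444, Gm25360 and Gm25099 each had 0 counts in 1 of the 11 libraries, with up to 52, 18 and 6 counts elsewhere. A count of 3 corresponded to between 0.137 and 0.221 CPM in blood, so Gm22973 lay close to the depth limit throughout.

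The library labelled V2, a control female, stood apart from the other blood libraries and was left out of the blood comparisons, which leaves 2 control females. Its snRNA loci summed to 333.0 CPM (95% Wilson interval 325.3 to 340.9, counting error only). Globin genes took 50.1% of its counts and between 66.3 and 76.8% in the other 11. Its 20 cortex markers summed to 197.2 CPM, against 5.07 to 19.9 CPM in 10 of the other blood libraries and 74.7 CPM in the nPM male V5. The erythroid markers summed to between 699800 and 793500 CPM in the 11 blood libraries, so blood carried its defining transcripts. Every result below that names blood rests on the 11 libraries, and the values with V2 are given where they change a call.

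**Figure D1:**
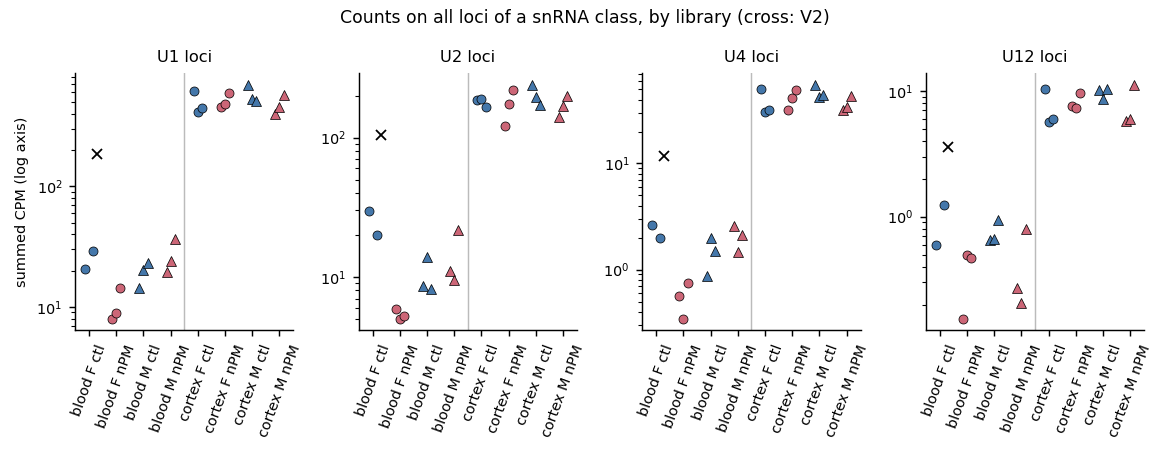
Summed CPM (log axis) of all loci of the U1, U2, U4 and U12 classes in each library of blood and cortex, by sex (F, M) and exposure (ctl control, nPM), with V2 as a cross. In female blood the 3 nPM libraries lie below both control libraries in all 4 panels, an order that TMM scaling keeps for U2 and U4 but not for U1 and U12, and V2 lies above all other blood libraries.

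Per kilobase of transcript, the highest of the 11 loci in control blood were Gm22513 (67.9 CPM per kilobase, mean of 5 libraries), Gm23444 (48.8), Gm26244 (21.8), Gm25939 (20.3) and Gm24305 (13.1). The lowest was Gm22973 at 1.12. In control cortex the order was different. Gm22513 (1426 CPM per kilobase) and Gm22317 (1339) led, while Gm23444 (9.42), Gm26244 (9.05) and Gm22973 (7.05) were lowest. Gm23444 and Gm26244 were the only members listed with a higher mean level in control blood than in control cortex. For Gm23444 this order turned when the identical locus Gm23472 was added, with 48.8 CPM per kilobase in control blood and 367.9 in control cortex, and Gm26244 was then the only one of the 11. The tissue levels were not tested, since blood counts chose the loci.

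The first comparison asked what prenatal nPM did to these loci in blood in both sexes, with sex and RNA integrity number (RIN) as covariates. Of the 11 loci, 10 were lower in nPM blood and 1 was higher, with a median log2 fold change of -0.83 against 0.00 for all 9977 genes tested. Under edgeR's quasi-likelihood test 1 of the 11 passed an unadjusted p of 0.005, where 0.17% of all genes did. None passed an adjusted p of 0.05, and neither did any other gene (0%). At an unadjusted p of 0.05 there were 5, all lower, where 3.11% of all genes passed and 1.54% were lower. With limma voom and with DESeq2, 2 loci passed the unadjusted 0.005 and none the adjusted threshold.

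The locus that passed was Rnu12, the U12 RNA of the minor spliceosome. Its TMM-scaled CPM was 0.465 and 1.42 in the control females, and 0.706, 0.848 and 0.849 in the control males. In nPM blood it was 0.151, 0.492 and 0.533 in females and 0.211, 0.234 and 0.714 in males. The groups overlapped through the control female V4 and the nPM male V21. The log2 fold change was -1.31 (SE 0.40), or 2.48-fold lower in nPM, with an unadjusted edgeR p of 0.00384 and an adjusted edgeR p of 0.9997. An exact permutation test of the unadjusted group means (two-sided, 6 against 5 libraries, smallest possible p 0.00433) gave p = 0.0303. These values rest on 3 to 25 counts per library, and the unadjusted edgeR p was above 0.005 without RIN (0.0157), with lane as a covariate (0.00779), with V2 included (0.00845) and in 8 of the 11 refits without 1 library (up to 0.0333, without V17).

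Next in order were Gm24305, a U1 locus (log2 fold change -1.27, SE 0.44), and Gm23444, a U2 locus (-0.95, SE 0.36). Their exact permutation p-values were 0.0649 and 0.108. In neither case did the nPM libraries as a whole separate from the controls. For none of the 11 loci did every nPM library lie below every control, which 0.11% of all genes did.

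**Figure D2:**
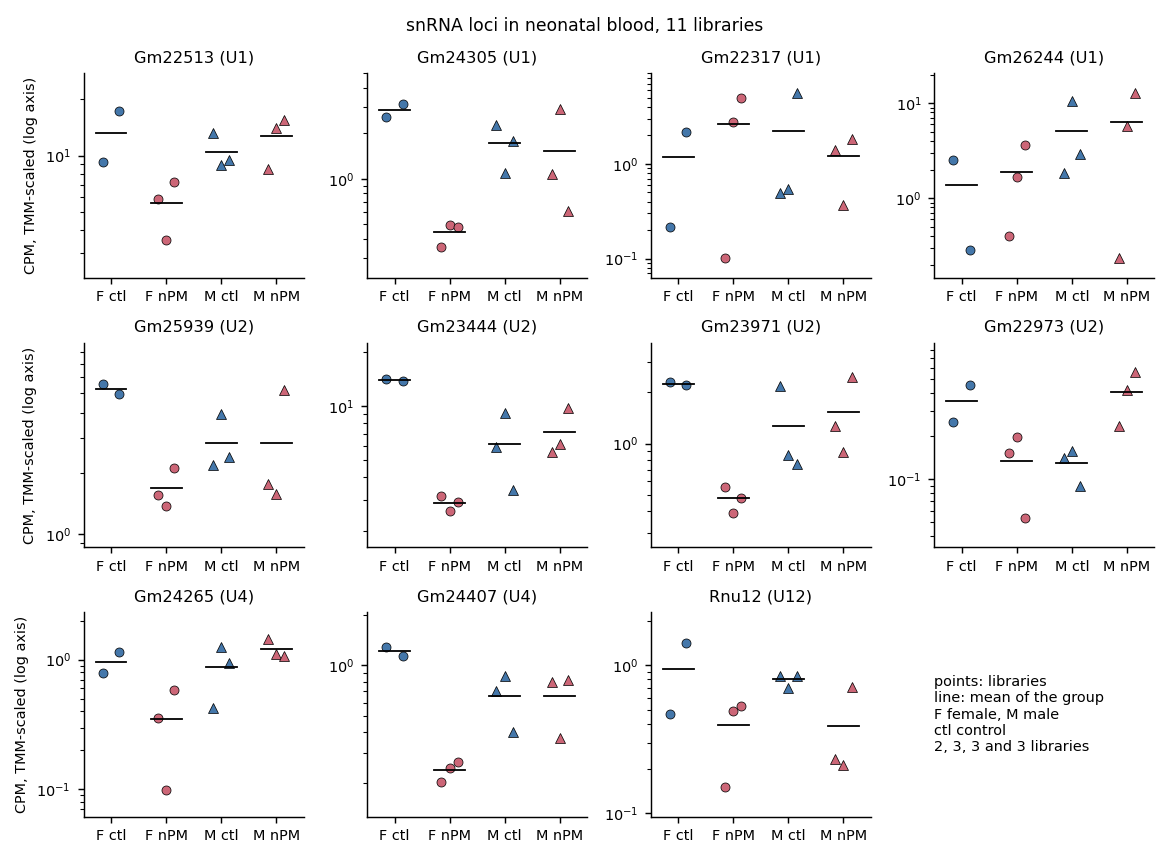
TMM-scaled CPM (log axis) of each of the 11 loci in the 11 blood libraries, by sex (F, M) and exposure (ctl control, nPM), with the mean of each group as a line. In 8 panels all 3 nPM females lie below both control females, while the male groups overlap in every panel but that of Gm22973.

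In females the loci separated. The comparison set 3 nPM females against 2 control females in a model with an exposure-by-sex term and RIN, fitted on all 11 blood libraries. The median log2 fold change of the 11 loci was -1.36, with 9 lower and 2 higher, against -0.04 for all genes. Of the 11, 6 passed an unadjusted p of 0.005, all of them lower in nPM, whereas 1.12% of all genes passed in either direction and 0.501% were lower. They were the U1 loci Gm24305 and Gm22513, the U2 loci Gm23444, Gm23971 and Gm25939, and the U4 locus Gm24407. Only Gm23444 also passed an adjusted p of 0.05, as did 0.02% of all genes (2 of 9977). For 8 of the 11 loci each nPM female lay below both control females, an order held by 11.4% of all genes. The loci share the same libraries and, within a class, most of their sequence, so these counts of loci are not counts of independent results. All snRNA loci together had 54.0 and 57.4 CPM in the control females and 16.9, 17.2 and 22.8 CPM in the nPM females. Fewer cells that carry these RNAs and less of the RNA per cell cannot be told apart in whole blood.

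Gm23444 had 14.1 and 13.7 TMM-scaled CPM in the control females and 2.61, 2.93 and 3.13 in the nPM females. It was the most counted U2 locus in blood, and its groups in females did not overlap. The study reported Gm23444 in females as the only blood gene to pass its multiple-testing correction. The call given here uses the same data and is not independent of that report. The log2 fold change was -2.25 (SE 0.34), or 4.77-fold lower, with an adjusted edgeR p of 0.0261. Over the alternatives its log2 fold change stayed between -2.40 and -1.83, but the adjusted p ranged from 2.65e-09 to 0.80. It was above 0.05 with limma voom (0.0589), with V2 included (0.267) and without V1, V3, V4, V6, V17 or V18.

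Other U2 loci were lower in nPM females too. Gm23971 had 2.22 and 2.29 TMM-scaled CPM in control females and 0.394, 0.480 and 0.555 in nPM females. Its log2 fold change was -2.32 (SE 0.51), with an adjusted edgeR p of 0.312. Gm25939 had 4.95 and 5.55 against 1.38, 1.56 and 2.13, a log2 fold change of -1.57 (SE 0.41) with an adjusted edgeR p of 0.44. In both, the female groups were apart. Gm22973 had 0.251 and 0.455 against 0.0533, 0.151 and 0.197, which did not overlap either, but its log2 fold change of -1.25 (SE 0.73) rested on 1 to 8 counts and did not pass.

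Among the U1 loci, Gm24305 had the largest change of the 11 in females. It had 2.58 and 3.13 TMM-scaled CPM in control females and 0.353, 0.480 and 0.492 in nPM females, which did not overlap. Its log2 fold change was -2.73 (SE 0.53), or 6.62-fold lower, with an adjusted edgeR p of 0.138. Gm22513, the most counted of all, had 9.24 and 17.3 against 3.54, 5.85 and 7.25. Its groups were apart as well. The log2 fold change was -1.25 (SE 0.36) with an adjusted edgeR p of 0.44, but without the control female V17 the log2 fold change was -0.66 and the unadjusted edgeR p was 0.116. Gm22317 had 0.215 and 2.16 in control females and 0.101, 2.76 and 4.96 in nPM females, a log2 fold change of 1.41 (SE 0.69). Gm26244 had 0.284 and 2.51 against 0.404, 1.67 and 3.63 (0.04, SE 1.03). The female groups of both overlapped, and neither passed.

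Of the U4 pair, Gm24407 had 1.14 and 1.29 TMM-scaled CPM in control females and 0.202, 0.246 and 0.267 in nPM females, which did not overlap. Its log2 fold change was -2.30 (SE 0.56), with an adjusted edgeR p of 0.398. Its neighbour Gm24265 had 0.788 and 1.14 against 0.0984, 0.353 and 0.586 (-1.36, SE 0.60), which did not overlap but did not pass the unadjusted 0.005. For Rnu12 the female log2 fold change was -1.01 (SE 0.58), and its female groups overlapped.

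Of the 6 loci that passed in females, Gm23444, Gm23971 and Gm24305 stayed under an unadjusted edgeR p of 0.005 in all 11 refits without 1 library. Gm25939 did not without V3 (0.00932) or V4 (0.0378), nor Gm24407 without V4 (0.0144), nor Gm22513 without V1 (0.00638), V3 (0.0224) or V17 (0.116). With V2 included 4 of the 6 passed, all but Gm25939 (0.00642) and Gm22513 (0.0150). Each fit without V4 or V17 was left with 1 control female.

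**Figure D3:**
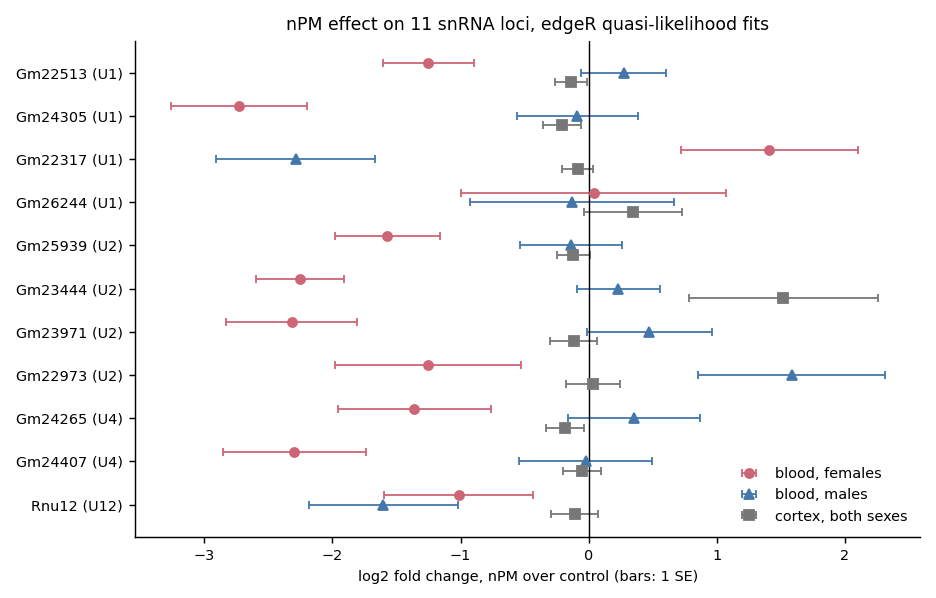
Log2 fold change of nPM over control with 1 SE for each of the 11 loci, in females and males of the blood fit with the exposure-by-sex term and in cortex of both sexes. In blood, 9 of the 11 female values lie below 0, and the male values fall on both sides of 0.

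In males no such shift was seen. The median log2 fold change of the 11 loci was -0.02, with 6 lower and 5 higher, against 0.02 for all genes. Only Gm22317 passed an unadjusted p of 0.005, as did 0.351% of all genes, and no locus or other gene passed the adjusted threshold (0%). At an unadjusted p of 0.05 there were 3 loci, where 4.99% of all genes passed. With limma voom and DESeq2 no locus passed either threshold. No locus had all 3 nPM males below all 3 control males, an order held by 4.9% of all genes. Next to Gm22317, the smallest p-values in males were those of Rnu12 and Gm22973. Rnu12 had a male log2 fold change of -1.60 (SE 0.58), with an unadjusted edgeR p of 0.0124. Gm22973 had 0.0894, 0.141 and 0.157 TMM-scaled CPM in control males and 0.234, 0.422 and 0.561 in nPM males, which did not overlap. Its log2 fold change was 1.58 (SE 0.73), with an unadjusted edgeR p of 0.0419, and it rested on 2 to 11 counts per library. The U2 locus with the most counts, Gm23444, had 3.40, 5.87 and 9.10 TMM-scaled CPM in control males and 5.56, 6.17 and 9.80 in nPM males. The 2 sets covered nearly the same range, and both lay between the control and the nPM females.

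The test of the difference itself was the exposure-by-sex term. Its median over the 11 loci was 1.71 on the log2 scale (male effect minus female effect), against 0.09 for all genes. At an unadjusted p of 0.005, 4 loci passed where 0.902% of all genes did, and at 0.05 there were 9, against 10.7% of all genes. Those at 0.005 were Gm23444 (2.48, SE 0.49), Gm23971 (2.79, SE 0.74) and Gm24305 (2.64, SE 0.73), all with the lower effect in females, and Gm22317 (-3.69, SE 0.91) with the lower effect in males. None passed the adjusted threshold in edgeR, nor did any other gene (0%). The smallest adjusted edgeR p was 0.215, for Gm23444. DESeq2 passed 1 locus at the adjusted threshold and limma voom none. With V2 included no locus passed the unadjusted 0.005 for this term. Gm23444 stayed under it in all 11 refits without 1 library. Gm23971 did not without V4, V8 or V22 (up to 0.00643), nor Gm24305 without V7, V8 or V17 (up to 0.0239), nor Gm22317 without V4 (0.0077) or V22 (0.0533).

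The values of Gm22317 in males and in this term rested on 1 control male, V22, and changed when identical copies were added. Its counts in control males were 7, 7 and 126, in V6, V8 and V22, and in nPM males 30, 7 and 36. Without V22 the male log2 fold change was -0.40, in place of -2.29. All 7 identical loci together had 17, 13 and 153 counts in the same control males, so V22 was the highest of them by this sum too. When the counts of the 7 identical loci were summed, in an alternative chosen after seeing the data, the male log2 fold change was -0.99 (unadjusted edgeR p of 0.0505) and the exposure-by-sex term was -1.09 (0.138). Neither passed. Under the same alternative the exposure-by-sex term was 2.66 for Gm23971, which held 282 of the 330 blood counts of its identical loci, and its call held. The alternative could not move Gm23444 (2.47) or Gm24305 (2.64) by much. Gm23444 held 1507 of the 1508 blood counts of its pair, and Gm24305 has no identical locus.

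How the identical copies divided their reads differed between blood and cortex. Gm23472 and the other copies named here were looked at after the values were seen. In blood, Gm23444 held 1507 of the 1508 counts of the pair that it forms with Gm23472, and its share was between 98.2 and 100% in every one of the 11 libraries. In cortex its share was between 1.70 and 4.36% in 11 of the 12 libraries. In the remaining one, the nPM male V13, it was 73.3%, with 1313 of 1792 counts. V2 lay in between at 77.3%.

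Gm22317 varied in a different way. It held between 83.6 and 97.4% of the counts of its 7 identical loci in cortex, and anywhere from 11.8 to 98.9% in blood. In the nPM female V1 it had 2 of 17 such counts and in the nPM female V18 it had 93 of 94. Gm23971 held between 64.7 and 100% of its set of 4 in blood and between 42.7 and 93.6% in cortex. Gm26244 (mm10, chromosome 18, positions 10150977 to 10151140, minus strand), whose sequence is 1 base away, ran from 5 to 253 counts in blood, which was between 1.24 and 49.8% of the counts of the 4 U1 members. In cortex it was between 0.206 and 0.95%.

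**Figure D4:**
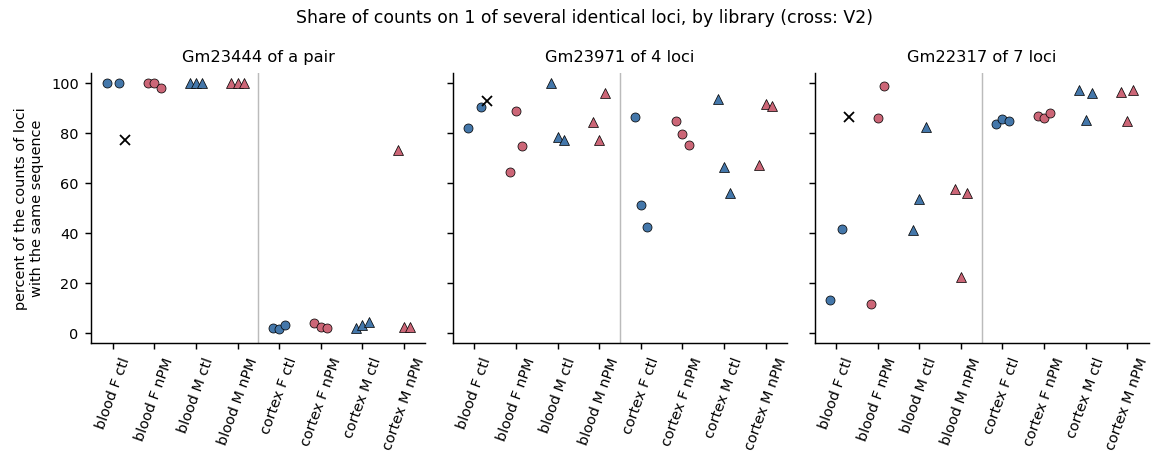
Percent of the counts of loci with the same sequence that fell on Gm23444 (pair), Gm23971 (4 loci) and Gm22317 (7 loci), in each library by tissue, sex and exposure, with V2 as a cross. Gm23444 sits near 100% in blood and below 5% in cortex, apart from 1 cortex nPM male at 73.3%, while Gm22317 is spread over most of the range in blood.

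Sums over a whole class do not depend on which of its loci a counted read was placed on. Reads left uncounted or placed outside the class are missing from these sums, and their number is not known. A locus was placed in a class when its sequence lay within 10% of the reference RNA. The 14 U2 loci summed to 22.9 and 23.4 TMM-scaled CPM in the control females and 5.02, 5.80 and 6.02 in the nPM females. The 3 U4 loci summed to 2.08 and 2.28 against 0.344, 0.555 and 0.853. In both classes the nPM females lay below both controls. The 33 U1 loci summed to 16.2 and 33.5 against 7.82, 8.91 and 16.4, and here the control V4 and the nPM female V18 met. In males the U2 sums were 7.38, 11.3 and 14.8 in controls and 9.59, 9.76 and 19.4 with nPM, which overlapped. With 3 against 2 libraries an exact test could not pass 0.05, so none was made.

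In cortex, where 9 of the 11 loci had a higher control level than in blood (10 with identical copies added), no locus passed the test. The 8 lower and 3 higher log2 fold changes had their median at -0.11, against 0.00 for all 20857 genes tested. In edgeR none reached an unadjusted p of 0.005 or of 0.05, whereas 0.614% of all genes passed the first of these, 5.67% the second, and 0.0144% passed the adjusted threshold. With limma voom and DESeq2 the counts at 0.005 and at the adjusted threshold were 0 too. The largest value was that of Gm23444, 1.52 (SE 0.74). In V13 it had 43.3 TMM-scaled CPM, against 1.35 to 2.33 in the other 11 cortex libraries. Without V13 its log2 fold change was 0.00 (SE 0.18), and with the identical copy added it was -0.08 (SE 0.23). With identical copies added, Gm23971 moved from -0.12 to -0.47 (SE 0.18), with an unadjusted edgeR p of 0.0208 and an adjusted edgeR p of 0.843, and it was the only one of the 11 under an unadjusted 0.05. The cortex fit took both sexes together, and the effect by sex was not tested in cortex. By log2 ratio of mean TMM-scaled CPM, every locus but Gm23444 (-0.04) was higher with nPM in cortex females. In cortex males every locus was lower except Gm23444 (3.06, with V13 included) and Gm26244 (0.25).

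Split by sequencing lane, too few female libraries were left for a test within a lane. A fit with lane as a covariate was among the alternatives, and beyond it the part of lane in the female difference was not tested. Lane 1 held 2 nPM females and 1 control female, and there 10 loci were lower and 1 was higher, with a median log2 ratio of -1.80. Lane 3 held 1 of each, with 9 lower, 2 higher and a median of -1.42, so all its ratios share the same pair of libraries. In males the medians were -0.35 in lane 1 and 1.02 in lane 3. RIN was 7.5 and 8.2 in the control females and 7.6, 7.6 and 9.0 in the nPM females, and without RIN in the model the same number of loci (6) passed in females.

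Of the cell type marker sums in female blood, those of platelets alone were apart between nPM and control. The 13 platelet markers, each with counts in all 5 female libraries, summed to 283.0 and 304.0 CPM in control females and 319.4, 482.9 and 763.2 in nPM females. The 16 neutrophil markers summed to 142.0 and 176.2 against 80.1, 106.0 and 152.2, and the 12 B cell markers to 50.3 and 90.1 against 20.8, 42.3 and 67.1. The monocyte and macrophage markers summed to 80.4 and 88.4 against 75.4, 99.6 and 110.8. For T and NK cells the sums were 12.7 and 43.8 against 9.45, 14.6 and 22.7, and for erythroid markers 755900 and 773600 against 699800, 760700 and 782900. Only the platelet sums were apart. The 20 cortex markers were at 8.77 and 16 CPM in control females and 5.32, 5.71 and 16.4 in nPM females. Of the 20, 5 (Map2, Gad1, Tubb3, Gfap and Bcl11b) had counts in all 11 blood libraries, with up to 360 for Map2, and the other 15 were at 0 in 1 (Pdgfra) to 10 (Olig2) of them. Scaled to counts outside globin genes in place of all counts, snRNA summed to 213.6 and 214.2 CPM in the control females and 50.2, 64.3 and 93.4 CPM in the nPM females. The part of cell makeup in the snRNA result was not tested.

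Of the other noncoding RNA types given here, only the miRNAs were mostly higher in nPM females, and the rest were mostly lower like the snRNA loci. The snoRNAs tested, which guide modification of ribosomal RNA, were 16 lower of 22, with a median of -0.60 on the log2 scale. The 6 scaRNAs, which guide modification of snRNA, had a median of -0.54, all lower, and 1 of them passed the adjusted threshold. The 4 rRNA genes had -1.54, all lower. Of the 12 genes of the type misc_RNA, 10 were lower, with a median of -0.53. The 13 miRNAs went the other way, with 4 lower, 9 higher and a median of 0.17. The median of 9297 protein-coding genes was -0.05. In males the median was -0.42 for misc_RNA, with 10 of 12 lower, and -0.46 for the rRNA genes, with all 4 lower. The male medians were 0.07 for snoRNAs, 0.02 for scaRNAs and -0.11 for miRNAs.

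The proteins that build and carry snRNA were tested as 8 lists in the same fits, and no gene of any list passed an unadjusted p of 0.005 in any of the comparisons. In females the 7 Sm core proteins tested, which form the ring on U1, U2, U4 and U12, had a median of -0.68 (log2), and 6 of them were lower. The 12 U2 snRNP proteins had -0.37, with 10 lower, and the 17 proteins of the SMN complex and snRNP assembly had -0.34, with 12 lower. Tri-snRNP proteins were at -0.22 (16 tested), Lsm proteins and U6 factors at -0.05 (12), snRNA transcription and processing factors at -0.05 (26), U11/U12 proteins at 0.01 (11) and U1 snRNP proteins at 0.10 (8).

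By list, the gene with the smallest p in both sexes together was Snrpf for the Sm core, Prpf39 for U1, Sf3b6 for U2, Prpf4 for the tri-snRNP, Mepce for U6 factors, Zcrb1 for U11/U12, Ddx20 for the SMN complex and Ints5 for snRNA processing. Ddx20, a helicase of the SMN complex that loads Sm proteins onto snRNA, had 1.31 ± 0.349 TMM-scaled CPM in control blood (SD, n = 5) and 0.703 ± 0.232 with nPM (SD, n = 6). Its log2 fold change was -0.84 (SE 0.31) in both sexes and -1.32 (SE 0.46) in females. Ints5, a subunit of the Integrator complex that cleaves nascent snRNA, had 0.398 to 0.537 TMM-scaled CPM in control females and 0.0504 to 0.197 in nPM females, a log2 fold change of -1.74 (SE 0.65). Mepce, which caps 7SK RNA and binds U6, was at -0.93 (SE 0.41) in females. None of the 3 passed in females, with an adjusted edgeR p of 0.491 for Ddx20 and Ints5 and of 0.518 for Mepce. They were picked by their p from these data and do not stand for their lists. In females the list of Ints5 had 14 genes lower and 12 higher, and that of Mepce had 7 lower and 5 higher. In both sexes together the list of Ints5 had 11 lower and 15 higher, with a median of 0.04.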

How the data were processed

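Reads from ribosome-depleted total RNA (RiboZero Gold) were trimmed with Trimmomatic, aligned to mm10 with HISAT2 and counted on GENCODE M11 genes with featureCounts 1.5.0-p3 by the authors, who deposited counts per gene without normalization for 24 libraries. Their gene table also holds a mean RPKM per gene that the authors made from the counts, and it was not used in any test. Strandedness, read length and the handling of multiply matching reads are not given in the sources used here.

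The members and lists were chosen with earlier results of these data known. Blood and cortex were fitted separately on genes counted at least once in every fitted library, a filter that the 11 loci pass by definition. The test was edgeR 4.0.16's quasi-likelihood F test (two-sided, TMM, R 4.3.3), with exposure, sex and RIN, and in a second model the exposure-by-sex term. Benjamini-Hochberg adjustment ran over all genes tested, and thresholds were an adjusted p of 0.05 and the study's unadjusted 0.005. The SE is the log2 fold change divided by the root of F. The study names limma voom, which was an alternative here (limma 3.58.1), as was DESeq2 1.42.0. TMM-scaled CPM divide counts by the TMM-adjusted library size and multiply by 1e6. P-values rest on single pups, from different litters within each sex and exposure per the study's methods. No 2 libraries of a group held identical counts. The fits were tested on simulated counts.

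V2 was left out because the study excluded 1 blood library without naming it, and V2, which stood apart in its counts, was taken to be that library. No source used here states that it was. Named loci were all with a symbol in Rnu, the 5 highest in control blood, those with the smallest p per blood comparison (up to 10 with p under 0.005, otherwise 3), those nearest the count limit and, per protein list, the gene with the smallest p. Gm23444 was also named by its symbol, with earlier results of these data known. Alternatives were other tests, normalizations, filters and covariates, all 12 blood libraries, 1 sex alone and each library left out. Summing identical loci was added after seeing the data. Sequences were compared with edlib 1.3.9.post1, with positions from GENCODE M21.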

Additional observations from a re-analysis of the deposited data

Results flagged for a closer look

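Of the 44 sets of libraries checked for a sample far from the others (each locus in control and nPM blood and cortex), 5 held one. The levels were not on a log scale, both sexes were pooled and the sets shared libraries, so no chance rate is given. Gm23444 had 43.3 TMM-scaled CPM in the cortex nPM male V13, and the other 5 nPM cortex libraries had 1.47 to 1.97. Gm26244 had 5.28 in the cortex nPM male V23, with the others at 0.851 to 1.78, and 10.4 in the blood control male V8, with the others at 0.284 to 2.91. Gm25939 had 5.15 in the blood nPM male V21, with the others at 1.38 to 2.13. Gm24305 had 2.90 in the blood nPM male V7, with the others at 0.353 to 1.08.

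For 4 loci the nPM effect in blood differed between the sexes at an unadjusted p of 0.005, by 2.48 for Gm23444, 2.79 for Gm23971, 2.64 for Gm24305 and -3.69 for Gm22317 (log2, male minus female), and no adjusted edgeR p passed 0.05.

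The library V2, outside the blood comparisons, had 333.0 CPM on snRNA loci, above the 16.9 to 63.9 CPM of the other 11 blood libraries.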

How the results depend on the processing

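Under every alternative run, the median log2 fold change of the 11 loci moved by less than a spread between libraries. That spread was the largest SD of the libraries' median log2 CPM within an exposure group, both sexes pooled. It was 0.91 in blood and 0.34 in cortex. This is wider than the median change itself in both sexes (-0.83), in males (-0.02) and in cortex (-0.11), so it cannot show that these were stable. With the sexes pooled, the blood spread also holds the difference between females and males. It is thus a loose limit for females (-1.36) and for the exposure-by-sex term (1.71) too. Leaving out 1 library gave -1.16 to -0.64 in both sexes, -1.76 to -1.19 in females, -0.11 to 0.25 in males, 1.11 to 2.16 for the exposure-by-sex term and -0.19 to 0.00 in cortex. No locus that passed an unadjusted p of 0.005 changed sign.

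Counts of loci varied with the processing. In both sexes the 1 locus at an unadjusted 0.005 became 2 with limma voom and DESeq2, 4 with a filter of 1 count in any library (2 at the adjusted threshold), and 0 with at least 10 counts in every library (3 loci tested), without RIN, with lane or with all 12 libraries. Leaving out 1 library gave 0 to 3, and 0 at the adjusted threshold.

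In females the 6 became 3 of 3 under the filter of 10 counts, 7 under that of 1 count in any library, 5 in female libraries alone, 4 with all 12 libraries and 4 to 6 with 1 left out. At the adjusted threshold, the 1 became 0 with limma voom and all 12 libraries, 2 with DESeq2, 5 with 1 count in any library and 0 to 2 with 1 left out.

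In males the 1 became 0 with limma voom, DESeq2, at least 10 counts, no RIN, lane, all 12 libraries, male libraries alone or identical loci summed, and 0 to 2 with 1 left out. The adjusted count became 1 with 1 count in any library, and 0 to 1 with 1 left out. For the exposure-by-sex term the 4 became 2 with limma voom or at least 10 counts, 0 with all 12 libraries and 2 to 5 with 1 left out. Its adjusted count became 1 with DESeq2, 4 with 1 count in any library and 0 to 1 with 1 left out. In cortex 1 count in any library gave 2 loci, and 1 at the adjusted threshold, and leaving out 1 library gave 0. The cause of these changes was not tested, beyond the fewer loci under the stricter filter.

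Depth limits Gm22973, Gm24265, Gm24407, Gm22317 and Rnu12, which had fewer than 5 counts in at least 1 blood library. Female blood had 2 control libraries. Loci with identical sequences cannot be told apart from these counts.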
